A study of Mus musculus with 17 samples.

Results

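The IgLON family was followed through the cortex of control and chronically stressed mice. Its 5 members, Negr1, Lsamp, Ntm, Opcml and Iglon5, were taken by gene symbol, and all 5 were present among the 36293 genes of the bulk tables and the 37608 genes of the single-nucleus tables. Control and chronic unpredictable stress (CUS) C57BL/6 mice (C57BL/6J by the study's methods, and all male by its text) were compared by bulk nuclear RNA-seq (4 control and 5 CUS mice, postnatal day 90) and by sNucDrop-seq, a droplet method that counts the RNA of single nuclei (4 control and 4 CUS mice, postnatal day 80). CUS began at 9 to 10 weeks of age and applied 3 changing stressors a day for 12 days, while controls stayed in a separate room and were handled daily, so that housing room and stress cannot be told apart. Mice were group housed during CUS. Those used for behavioural tests were housed singly from the evening of the last CUS day and grouped again after the sucrose preference test. The study took bulk tissue as punches of medial prefrontal cortex a day after the last behavioural test and the nuclei from neocortex a day after the last stressor, whereas the labels call both cortex.

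IgLON proteins are short chains of immunoglobulin-like domains held on the outer face of the neuronal membrane by a glycosylphosphatidylinositol (GPI) anchor. They bind one another within and between cells, and they are known for their part in neurite outgrowth, synapse formation and the limbic wiring for which LSAMP was named. NEGR1 can be shed from the membrane by the protease ADAM10 and can associate with the growth factor receptor FGFR2, and the NEGR1 locus is a recurrent association signal for depression and body weight in human genetics. NTM is neurotrimin, OPCML was first described as an opioid-binding protein, and IGLON5 is the target of autoantibodies in a sleep and brainstem disorder.

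Bulk libraries held 26188825 to 30525015 reads on genes. Of 40000 deposited barcodes, 26698 nuclei passed the filters, 1935 to 4235 a mouse, with median depths of 1804.5 to 2441 unique molecular identifiers (UMIs). No 2 libraries shared more than 2 barcodes. The nuclei fell into 34 classes, of which 25 held more than 200 nuclei, and a class was called after a cell type with the ending "-like" only where its marker genes were present. Nuclei with striatal markers (Striatal-like, 1895 nuclei) were among them, although the label is cortex. In the levels below, CPM values are counts scaled to a common total for each mouse and class, and in the comparisons of CUS with control they also carry TMM scaling factors.

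The coordinates of the deposited bulk tables are on mm10. Negr1 (ENSMUSG00000040037) lay on the plus strand of chromosome 3, from 156561794 to 157316445. Lsamp (ENSMUSG00000061080) lay on the plus strand of chromosome 16, from 39984361 to 42181679, a span of 2197 kb. Opcml (ENSMUSG00000062257) and Ntm (ENSMUSG00000059974) were neighbours on chromosome 9, at 27790775 to 28925410 on the plus strand and 28994750 to 29963141 on the minus strand, with 69.3 kb between their ends. Iglon5 (ENSMUSG00000013367) was the short member, 17.2 kb on the minus strand of chromosome 7 from 43472904 to 43490075. Negr1, Ntm and Opcml spanned 755, 968 and 1135 kb, so that the 4 genes other than Iglon5 were each longer than 500 kb. All 5 were annotated as protein coding. Small noncoding or antisense genes overlapped the 4 long members, and each collected at most 0.0482% of its host's reads in bulk.

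The promoters of Negr1 and Lsamp, the members with the largest decreases in nuclei, are shown because the study concerned the transcription factor YY1. They are the RefSeq bases before the gene start on GRCm38.p6 and the plus strand, chr3:156561544-156561793 for Negr1 and chr16:39984114-39984360 for Lsamp. Capitals mark the YY1 core, GCCAT or its other strand ATGGC.
Negr1: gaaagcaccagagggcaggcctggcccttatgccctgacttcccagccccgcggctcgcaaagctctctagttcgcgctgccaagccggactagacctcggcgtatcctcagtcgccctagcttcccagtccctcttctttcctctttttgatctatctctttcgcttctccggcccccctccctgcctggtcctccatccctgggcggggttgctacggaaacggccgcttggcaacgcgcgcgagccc
Lsamp: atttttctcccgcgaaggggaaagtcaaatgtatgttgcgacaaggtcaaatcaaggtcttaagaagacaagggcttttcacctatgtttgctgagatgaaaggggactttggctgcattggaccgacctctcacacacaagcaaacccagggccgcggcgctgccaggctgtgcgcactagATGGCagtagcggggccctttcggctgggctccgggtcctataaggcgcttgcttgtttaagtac
The core was found once in the Lsamp window and not in that of Negr1, and it occurred in none of the other 5 RefSeq windows of the family, which included a second start each for Lsamp and Ntm. The second Lsamp window, both Ntm windows and the Opcml window lay wholly inside the gene spans given above. The bases before the span starts of Ntm and Opcml were thus not searched. It was present in 32.9% of all 32851 promoter windows of 250 bases. The longer core AANATGGC (GCCATNTT on the other strand), which contains the short one, was found in no IgLON window and in 3.91% of all windows. The Negr1 window was 63.6% G and C with 19 CG pairs, against a median over all windows of 52.4% and 6 pairs.

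In bulk nuclear RNA the 4 long members were among the most heavily read genes. Lsamp ranked 3rd of all genes by reads, Opcml 11, Ntm 23 and Negr1 32, and the family took 1.66% of all gene reads. Per kilobase of gene span the order was different. Opcml stood at 4.15 ± 0.424 CPM per kb (SD, n = 9 mice), Lsamp at 3.28 ± 0.281, Negr1 at 2.69 ± 0.269, Ntm at 2.68 ± 0.391 and Iglon5 at 0.716 ± 0.0760. Negr1 and Ntm did not differ beyond their spread. The sources used here do not say whether bulk reads were counted over exons alone or over whole genes, and if over exons, this order per kilobase of span cannot be interpreted.

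Across the 25 classes each long member had its own pattern. Negr1 was highest in excitatory cluster 23, led by Fyb2 (2214 ± 290 CPM, SD, n = 8 mice), Ex_L4-like layer 4 nuclei (1998 ± 374) and Ex_Ndst4-like nuclei (1978 ± 320.4). The lowest mouse of cluster 23 was above the highest mouse of 21 of the 24 other classes. Ex_L2/3_Enpp2-like nuclei of the upper layers held 1089.6 ± 189 CPM and Inh_Pv-like interneurons, the fast-spiking parvalbumin type, 709 ± 129. OPC-like oligodendrocyte precursors (637 ± 124) and Oligo_Opalin-like oligodendrocytes (538 ± 187) were near the lower end.

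With all filters applied, Lsamp was highest outside neurons. Astro-like astrocytes held 9134 ± 1171 CPM and OPC-like nuclei 7515 ± 1098, and excitatory cluster 10, led by Cpne7, followed at 7079.8 ± 1279.5. Without the filter on doublet scores a Cpne7-led cluster was highest, not Astro-like nuclei. Interneuron classes ranged from 5195 ± 731 in Inh_Sst-like to 2703 ± 606 in Inh_Ndnf-like nuclei, and the largest class, Ex_L2/3_Enpp2-like, held 1801 ± 292. In Astro-like nuclei 99.1% carried at least 1 Lsamp UMI at a median depth of 1211 UMIs, and 98.6% did after thinning to 1000 UMIs.

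Ntm had the widest range. It stood at 3328 ± 325 CPM in Astro-like nuclei, with the lowest astrocyte mouse above every mouse of all 24 other classes, and at 107 ± 23.1 CPM in Claustrum-like nuclei, a 31.1-fold range. The lower end of this range is not read as expression, for the reason given below with the Microglia-like values. Excitatory classes spread widely. Ex_L5/6-like nuclei held 1362 ± 105 CPM, Ex_L2/3_Enpp2-like 1048 ± 96.0, Ex_L4-like 1014 ± 67.2 and Ex_L6-like 338 ± 32.7. Only 24.9% of Claustrum-like nuclei carried an Ntm UMI although their median depth was 2787 UMIs, against 84.1% of Ex_L2/3_Enpp2-like nuclei at 2478 UMIs.

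Opcml had its lowest level in astrocytes. Ex_L5-like nuclei held 2073 ± 259.8 CPM and OPC-like nuclei 1874 ± 210.4, whereas Astro-like nuclei held 209 ± 43.7 and 21.3% of them carried a UMI. The 77 Oligo_Enpp6-like nuclei, newly forming oligodendrocytes, were too few for the comparisons, and their pooled Opcml level was 3782 CPM (428 of 113180 UMIs), against 649 ± 195 in Oligo_Opalin-like nuclei. Iglon5 was low in every class, from 7.10 ± 6.24 CPM in Oligo_Opalin-like nuclei to 36.1 ± 15.3 in Inh_Sst-like nuclei and 37.6 ± 77.8 in the sparse cluster 25, led by Nefm, and its ranges over mice were separate for 4 of 300 class pairs. For the long members such separation held for 114 (Negr1), 152 (Lsamp), 175 (Ntm) and 121 (Opcml) of 300 pairs.

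**Figure D1:**
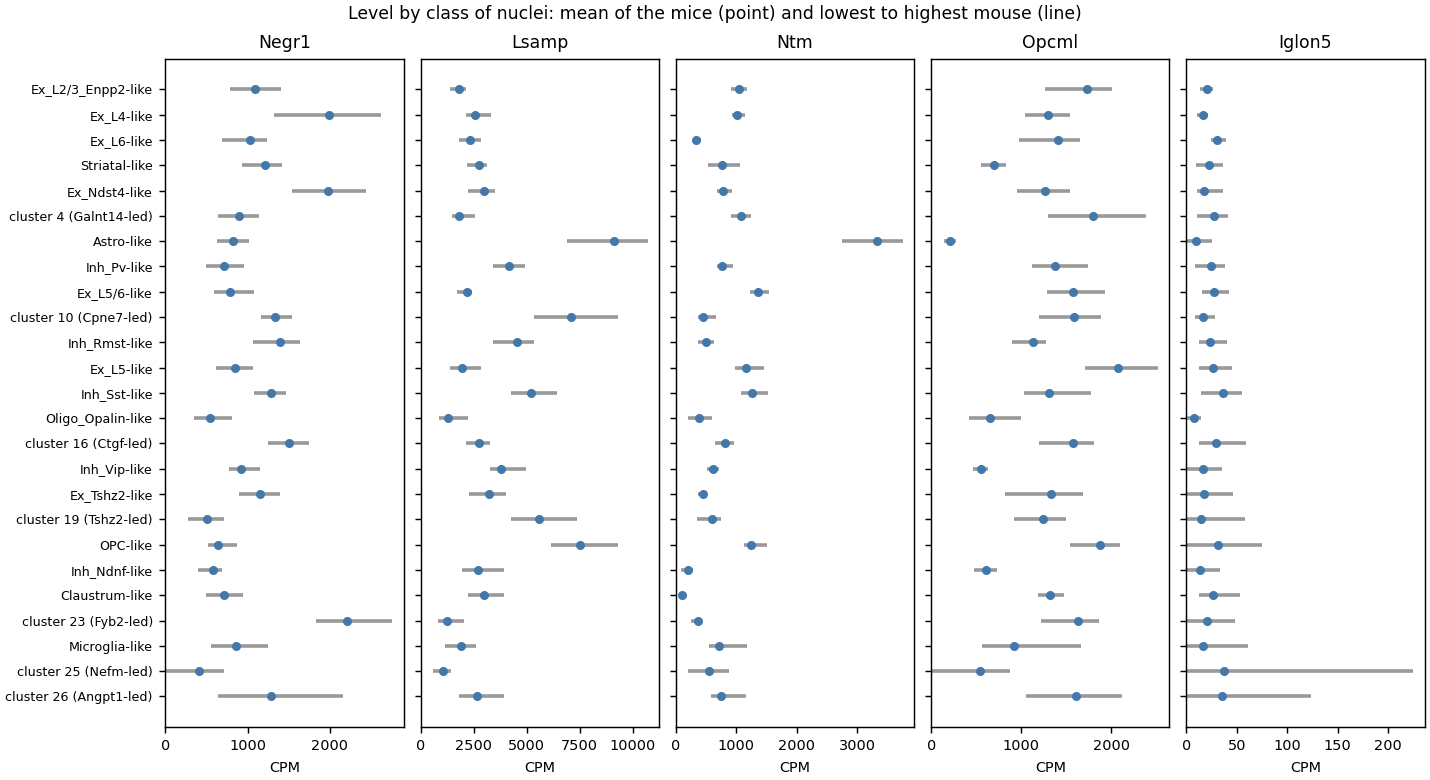
Level of each IgLON transcript in the 25 classes, in CPM on a linear axis of its own for each gene. Points are means of 8 mice and lines run from the lowest to the highest mouse. Lsamp and Ntm peak in Astro-like nuclei, where Opcml is lowest, and Negr1 peaks in cluster 23, Ex_L4-like and Ex_Ndst4-like nuclei.

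Neighbours in these orders were compared within mice. An exact two-sided sign-flip permutation test over the 8 mice, whose smallest p is 0.00781, gave p under 0.05 for 14 of 120 neighbouring pairs and the smallest p for 9, but none passed after Benjamini-Hochberg adjustment (smallest adjusted p = 0.104). With 120 tests this smallest p passes only if many more pairs reach it, so the adjusted values do not show that neighbours are alike. These 9 pairs, higher in 8 of 8 mice, included Astro-like over Ex_L5/6-like for Ntm (1.29 on the log2 scale), Astro-like over OPC-like for Lsamp (0.28), and for Ntm also Ex_L6-like over Inh_Ndnf-like (0.81) and Inh_Ndnf-like over Claustrum-like (0.87). Microglia-like nuclei, of an immune lineage, also held these transcripts. They carried an Lsamp UMI in 74.5% and a Negr1 UMI in 57.0% of cases at a median depth of 1621 UMIs, and the same nuclei held 133 CPM of the excitatory marker Slc17a7, against 208 CPM in Ex_L2/3_Enpp2-like nuclei. An Ntm UMI was found in 50.2% and an Opcml UMI in 59.4% of them, more than in Claustrum-like nuclei for Ntm and in Astro-like nuclei for Opcml, so the low levels of those classes are not read as expression. By mean level, Negr1 in Microglia-like nuclei (862 CPM) was also above Astro-like (824), Ex_L5/6-like (789), Claustrum-like (710) and Inh_Pv-like nuclei (709). It was above OPC-like and Oligo_Opalin-like nuclei too, and Lsamp (1878) was above Ex_L2/3_Enpp2-like nuclei (1801). Those levels are read with the same limit. Whether free RNA, mixed nuclei or the nuclei's own RNA gave the Microglia-like values was not tested.

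By Pearson correlation of log2 mean CPM over the 25 classes, among 5018 genes, Negr1 was most like Macrod2 (r = 0.81), Gm49353 (0.76) and Dok6 (0.73). Lsamp was most like Caskin1 (0.77), Srsf1 (0.74) and P3h3 (0.71), and Ntm most like Tnrc6b (0.68), Fndc3b (0.63) and Gpc6 (0.63). Opcml was most like Csmd1 (0.84), 0610010F05Rik (0.82) and Fam155a (0.82). Between members r ran from -0.13 for Lsamp with Opcml to 0.34 for Negr1 with Opcml. The genes above were picked as the highest of 5018, so members lying below them says nothing of likeness within the family. The classes share libraries, so these values are descriptions, and Iglon5 was too low to be ranked.

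Bulk nuclear RNA was used to ask whether CUS changed the family. Opcml rose. Control mice held 3945, 4366, 4687 and 3909 CPM, and CUS mice 5318, 4859, 5141, 5038 and 5205 CPM. All 5 CUS mice were above all 4 controls, as was true of either direction for 8.76% of the 18394 genes tested. The log2 fold change of Opcml was 0.27 ± 0.0686 (SE), and its adjusted p by the edgeR quasi-likelihood test was 0.0484, just inside the threshold of 0.05. It was the only one of 5 members called, where 3.29% of all tested genes (606, 392 of them lower in CUS; without TMM factors 822, 619 of them lower) were called.

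Ntm, the neighbour of Opcml, was also read more often in CUS mice but did not pass. Its levels were 2123, 2327, 2697 and 2028 CPM in controls and 3359, 2575, 2953, 2668 and 2732 CPM in CUS mice. Control replicate 3 was inside the CUS range, and the other 3 controls were below it. The log2 fold change was 0.32 ± 0.0969 with an adjusted p of 0.0852. Lsamp varied more among controls (7491, 6471, 7440 and 5561 CPM) than among CUS mice (7634, 7693, 7962, 7580 and 7285 CPM), and its log2 fold change of 0.18 ± 0.0858 had an adjusted p of 0.25, and was 0.11 without control replicate 4.

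Negr1 was the 1 member with a lower mean in CUS mice. Controls held 2345, 2196, 1907 and 2004 CPM and CUS mice 1859, 2306, 2030, 1818 and 1828 CPM, so the groups overlapped. Its log2 fold change was -0.10 ± 0.0854, with an adjusted p of 0.524, and ran from -0.17 (without CUS replicate 2) to -0.05 (without control replicate 1) when 1 mouse was left out. Iglon5 stood at 10.98, 10.75, 14.6 and 10.72 CPM in controls and at 13.5, 12.0, 11.6, 13.1 and 13.5 CPM in CUS mice, with an adjusted p of 0.538 (log2 fold change 0.12 ± 0.1, and 0.23 without control replicate 3). The median log2 fold change of the 5 members was 0.18, beside 0.01 over all tested genes. In bulk tissue, fewer cells of a type and less RNA per cell cannot be told apart.

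The Opcml call was also made by the edgeR likelihood ratio test (adjusted p = 0.00873) and by DESeq2 (0.00165), but it changed with single mice. Leaving out 1 mouse at a time gave log2 fold changes of 0.24 to 0.32 and adjusted p-values of 0.0121 to 0.118, and the call was kept in 2 of 9 fits, those without control replicate 3 and without CUS replicate 2. Ntm was called by the edgeR likelihood ratio test the study used (adjusted p = 0.0348), by DESeq2 (0.0282) and without control replicate 3 (0.0190). Some marker sums moved with the groups. The 3 markers of excitatory neurons, in which Opcml was high, were all higher in CUS mice (median log2 fold change 0.24, sums of 399 to 496 CPM in controls and 469.7 to 534 CPM in CUS mice), as were the 4 markers of Ex_L5/6 (0.13, 660.4 to 697 and 697 to 737 CPM), and the 3 inhibitory markers were all lower (-0.26, 92.9 to 148 and 87.6 to 124 CPM), with none called in these 3 lists. Other excitatory lists rose less or fell. Their medians were 0.04 for Ex_L2/3_Enpp2, 0.04 for Ex_L5, -0.03 for Ex_Tshz2, -0.08 for Ex_L6 and -0.11 for Ex_L4. They were -0.16 for Ex_Cpne7 and -0.22 for Claustrum, with 1 marker called lower in each, -0.29 for Ex_Galnt14 and -0.45 for Ex_L6b. Lists of single interneuron types were mixed. Medians were 0.34 for Inh_Pv, 0.28 for Inh_Sst and 0.33 for Inh_Vip, of which 1 marker of Inh_Vip was called higher. Inh_Rmst had a median of -0.44 with 1 marker called lower, and Inh_Ndnf one of 0.007 with 1 called lower and 1 called higher. The 5 OPC markers, of a class with high Opcml, summed to 331 to 429 CPM in controls and 254 to 307 CPM in CUS mice, all 5 were lower, and 1 was called lower. The 6 astrocyte markers, of the class in which Lsamp and Ntm were highest and Opcml lowest, summed to 1321 to 1637 CPM and 1217 to 1459 CPM, with 5 lower and 2 of them called. The 6 Oligo_Opalin markers summed to 244 to 593 CPM and 259.8 to 327 CPM, with all 6 lower and none called. Of the 5 Oligo_Enpp6 markers, of the class with the high pooled Opcml level, 4 were lower and 1 was called lower (median -0.23). Of the 6 endothelial markers 1 was lower (median 0.14) and of the 6 microglial markers 3 (median 0.01), with none called. The 7 striatal markers summed to 651 to 1092 CPM and 1100 to 1365 CPM, with 1 called higher and 6 of 7 lower in CUS mice, and the 3 markers of Ex_Ndst4 to 99.9 to 267 CPM and 62.8 to 80.7 CPM, with 2 called lower. No marker of these lists was at 0 in all mice, and the part of these shifts in the IgLON values was not tested.

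**Figure D2:**
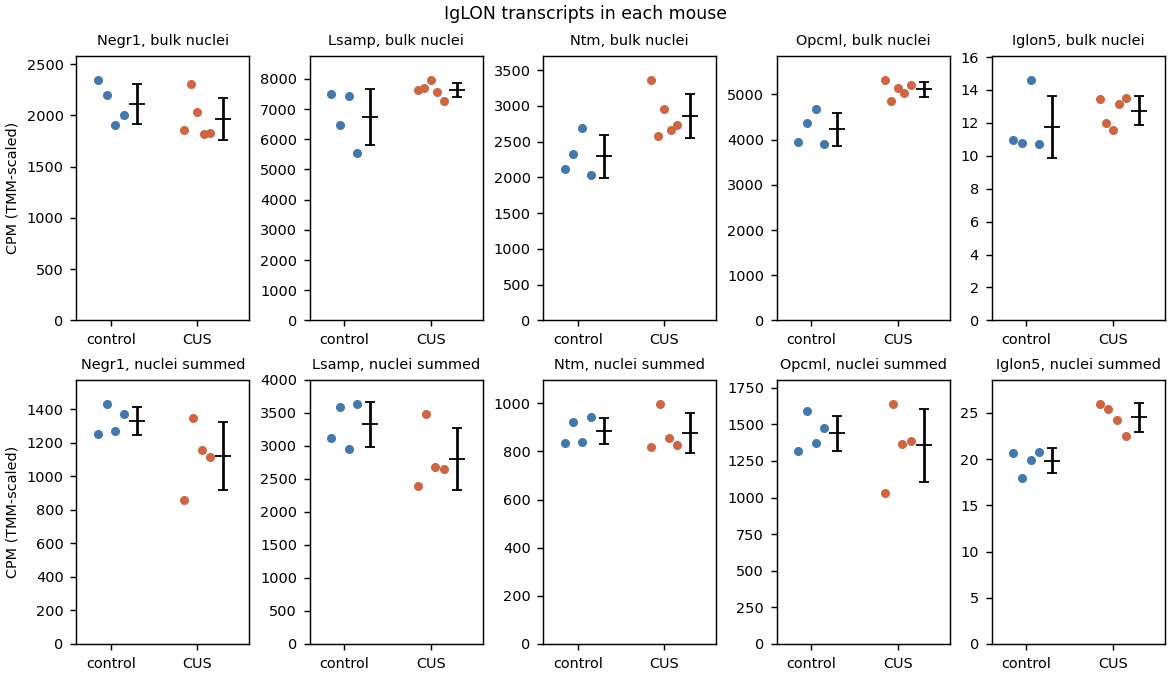
TMM-scaled CPM of each IgLON gene in every mouse, for bulk nuclear RNA (upper row, 4 control and 5 CUS mice) and for single nuclei summed by mouse (lower row, 4 and 4 mice). Bars are mean ± SD and axes start at 0. Opcml is higher in all 5 bulk CUS mice, and in the lower row 1 CUS mouse sits lowest for Negr1, Lsamp, Ntm and Opcml and another sits highest of its group.

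Other adhesion genes of the immunoglobulin superfamily gave 2 calls in bulk, both lower, where 3.29% of all tested genes were called, 392 of 606 lower. Among 9 GPI-anchored genes (contactins, MDGA proteins and Thy1), 1 was called, Cntn6, a contactin. It fell from 231, 195, 151 and 184 CPM to 124, 161, 129, 128 and 119 CPM (log2 fold change -0.53 ± 0.113, adjusted p = 0.0295, edgeR). Among 16 transmembrane genes 1 was called, Alcam, an adhesion molecule of activated leukocytes and growing axons. It fell from 403, 393, 329 and 427 CPM to 332, 293, 335, 301 and 307 CPM (-0.31 ± 0.0754, adjusted p = 0.0465). Both groups overlapped in 1 mouse of the controls, and without single mice Cntn6 kept its call in 4 of 9 fits and Alcam in 1 of 9.

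The largest fold changes after Cntn6 were those of Dscaml1 (0.45 ± 0.169, adjusted p = 0.146) and Sdk1 (0.41 ± 0.105, 0.0541), homophilic recognition molecules of neurites. The 9 GPI-anchored genes had a median log2 fold change of -0.04, with 6 lower, and the 16 transmembrane genes one of 0.03, with 6 lower. Of the genes linked to NEGR1 none passed. Adam10, the shedding protease, had a log2 fold change of -0.22 ± 0.0672 (adjusted p = 0.0894), with 121, 114, 106 and 104 CPM in controls and 89.5, 107, 99.0, 92.1 and 90.6 CPM in CUS mice. Adam17, a related protease, was at -0.09 ± 0.0583 (adjusted p = 0.415) and Fgfr2 at -0.06 ± 0.0550 (0.538).

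In single nuclei summed by mouse none of the 4 tested members was called, and Negr1 and Lsamp had the larger differences. Negr1 stood at 1254, 1433, 1270 and 1369 CPM in controls and 856, 1348, 1157 and 1115 CPM in CUS mice, with a log2 fold change of -0.25 ± 0.134 and an adjusted p of 0.598. Lsamp stood at 3121, 3590, 2952 and 3638 CPM against 2393, 3487, 2682 and 2644 CPM (-0.25 ± 0.144, adjusted p = 0.614). In both, 3 of 4 CUS mice were below every control, and CUS replicate 2 was among the controls.

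Opcml and Ntm showed little difference. Opcml stood at 1318, 1588, 1373 and 1473 CPM against 1033, 1641, 1366 and 1384 CPM (-0.09 ± 0.139, adjusted p = 0.841), and its log2 fold change was 0.027 without CUS replicate 1. Ntm stood at 835, 924, 840 and 941 CPM against 819, 998, 855 and 829 CPM (-0.02 ± 0.104, 0.963), and its sign was not stable, being 8.0e-04 without TMM factors and from -0.071 to 0.032 when 1 mouse was left out. Iglon5 was below the filter on low counts and was not tested there. Its levels, 20.7, 17.9, 19.9 and 20.8 CPM in controls and 26.01, 25.4, 24.3 and 22.5 CPM in CUS mice, did not overlap, which held in either direction for 4.8% of tested genes. With no filter, its log2 fold change was 0.30 ± 0.149 (adjusted p = 0.71, edgeR).

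At an adjusted p of 0.2, the level the study used for nuclei, none of the 4 tested members was called in the summed nuclei, where 1 of 5018 genes (0.0199%) was called by the edgeR quasi-likelihood test and 402 had an unadjusted p under 0.05. DESeq2 called 22 genes, and no member among them. Without CUS replicate 2, 777 genes were called, and Negr1 (-0.34 ± 0.114, adjusted p = 0.133) and Lsamp (-0.36 ± 0.113, 0.118) were among them. Without CUS replicate 1 the log2 fold changes were smaller, -0.14 for Negr1 and -0.18 for Lsamp (adjusted p = 0.976 for both, edgeR). The study sequenced its nuclei in 2 batches, each with control and CUS mice, but the labels do not say which mouse was in which, so that no within-batch value could be had and the fits here lack the batch term that the study used. Striatal-like nuclei numbered 302, 333, 395 and 175 in controls and 176, 272, 136 and 106 in CUS mice, and Astro-like nuclei 89, 175, 129 and 126 and 279, 94, 115 and 163. The part of this makeup in the summed values was not tested.

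No adhesion gene outside the family was called in the summed nuclei either. The largest changes were those of Alcam (-0.35 ± 0.110, adjusted p = 0.596), Mdga2, a GPI-anchored regulator of synapse formation (-0.28 ± 0.144, 0.596), and Ncam2 (-0.26 ± 0.137, 0.596). Alcam held 513, 542, 530 and 590 CPM in controls and 385, 510, 423 and 383 CPM in CUS mice, without overlap, which held in either direction for 4.8% of tested genes. Of the 7 GPI-anchored genes tested 6 were lower, of the 16 transmembrane genes 11, and both tested NEGR1-linked genes, Adam10 (-0.19 ± 0.0801, adjusted p = 0.596) and Fgfr2 (-0.13 ± 0.154, 0.777).

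The comparison was then made within each class, to ask in which cells a change might sit. Over 101 member and class pairs that passed the filter, 84 were lower in CUS mice and 17 higher, with a median log2 fold change of -0.14. None was called at an adjusted p of 0.2 by the edgeR quasi-likelihood test (smallest 0.351), where 0.106% of all 117493 gene and class pairs were called. These fits too are without the study's batch term. An unadjusted p under 0.05 was found for 9 of the 101 pairs, 8 of them lower, and for 5.99% of all pairs. Groups did not overlap for 5 pairs, against 3.34% of all pairs. The classes come from the same 8 mice and are not independent of one another. All but 1 of the 101 pairs, that of Iglon5, were of members longer than 500 kb. In summed nuclei 94.6% of the 205 tested genes of 500 kb or more were lower in CUS mice. That share was not taken within classes, so the counts of lower pairs and classes are not set apart from those of other long genes.

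Negr1 was lower in 24 of 25 classes, with a median of -0.20. It reached an unadjusted p under 0.05 in 4 of them, all excitatory, as were most of the 25 classes. Over all tested genes the share under 0.05 (edgeR) was 11.5% in Ex_L2/3_Enpp2-like and 9.47% in Ex_L4-like nuclei. That share was 6.13% in Ex_L5/6-like and 6.53% in Claustrum-like nuclei. In Ex_L4-like nuclei the groups did not overlap, with 2107, 2655, 2219 and 2077 CPM in controls and 1289, 1941, 1811 and 2006 CPM in CUS mice (log2 fold change -0.36 ± 0.144, adjusted p = 0.445, edgeR). Such separation held for 4.68% of the genes tested in that class, of which 0.438% were called. In Ex_L2/3_Enpp2-like nuclei Negr1 stood at 1081, 1415, 1178 and 1256 CPM against 779, 1174, 911 and 995 CPM (-0.36 ± 0.14, adjusted p = 0.351), and only CUS replicate 2 was above a control. With all mice 0.948% of tested genes were called (51 of 5378). Without CUS replicate 2 the adjusted p of Negr1 was 0.0544, in a fit that called 758 of 5025 genes, and that in Ex_L4-like nuclei was 0.195. Without CUS replicate 1 the log2 fold changes shrank to -0.27 in Ex_L2/3_Enpp2-like nuclei (adjusted p = 0.717) and -0.24 in Ex_L4-like nuclei (0.81, edgeR). The others were Ex_L5/6-like (-0.42 ± 0.151, adjusted p = 0.779) and Claustrum-like nuclei (-0.47 ± 0.181, 0.614). Mean Negr1 in both was below that of Microglia-like nuclei.

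Lsamp was lower in 22 of 25 classes, with a median of -0.20. Its largest change was in Ex_L5-like nuclei, the class of deep projection neurons, where controls held 2951, 2265, 1838 and 2187 CPM and CUS mice 1363, 1732, 2009 and 1414 CPM (-0.50 ± 0.164, adjusted p = 0.63, edgeR). Control replicate 3 was within the CUS range there, and 0% of tested genes were called in that class. Cluster 23 (-0.48 ± 0.152), cluster 4, led by Galnt14 (-0.40 ± 0.153), and Claustrum-like nuclei (-0.36 ± 0.164) also had an unadjusted p under 0.05, with adjusted p-values of 0.745, 0.402 and 0.728. Mean Lsamp in cluster 23 (1236 CPM) and cluster 4 (1792 CPM) was below that of Microglia-like nuclei (1878 CPM). In Astro-like nuclei, where Lsamp was highest, the difference was -0.08 ± 0.141. Without CUS replicate 2 Lsamp was called in Ex_L2/3_Enpp2-like nuclei and cluster 4, among 1385 calls over all genes and classes, against 124 with all mice.

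Ntm differed in direction between classes. It was lower in 16 and higher in 9 classes, and its 1 unadjusted p under 0.05 was an increase in cluster 10, from 403, 361, 374 and 375 CPM to 446, 466, 671 and 450.2 CPM (0.43 ± 0.156, adjusted p = 0.737, edgeR). All 4 CUS mice were above all controls, and CUS replicate 3 was the highest. Separated groups were found for 3.16% of tested genes in that class and 0.0164% were called. Mean Ntm in cluster 10 (441 CPM) was below that of Microglia-like nuclei (716 CPM) and is read with the same limit. Opcml was lower in 22 of 25 classes (median -0.14) and reached no unadjusted p under 0.05. Iglon5 passed the filter in Ex_L5-like nuclei alone (0.36 ± 0.347, adjusted p = 0.941).

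**Figure D3:**
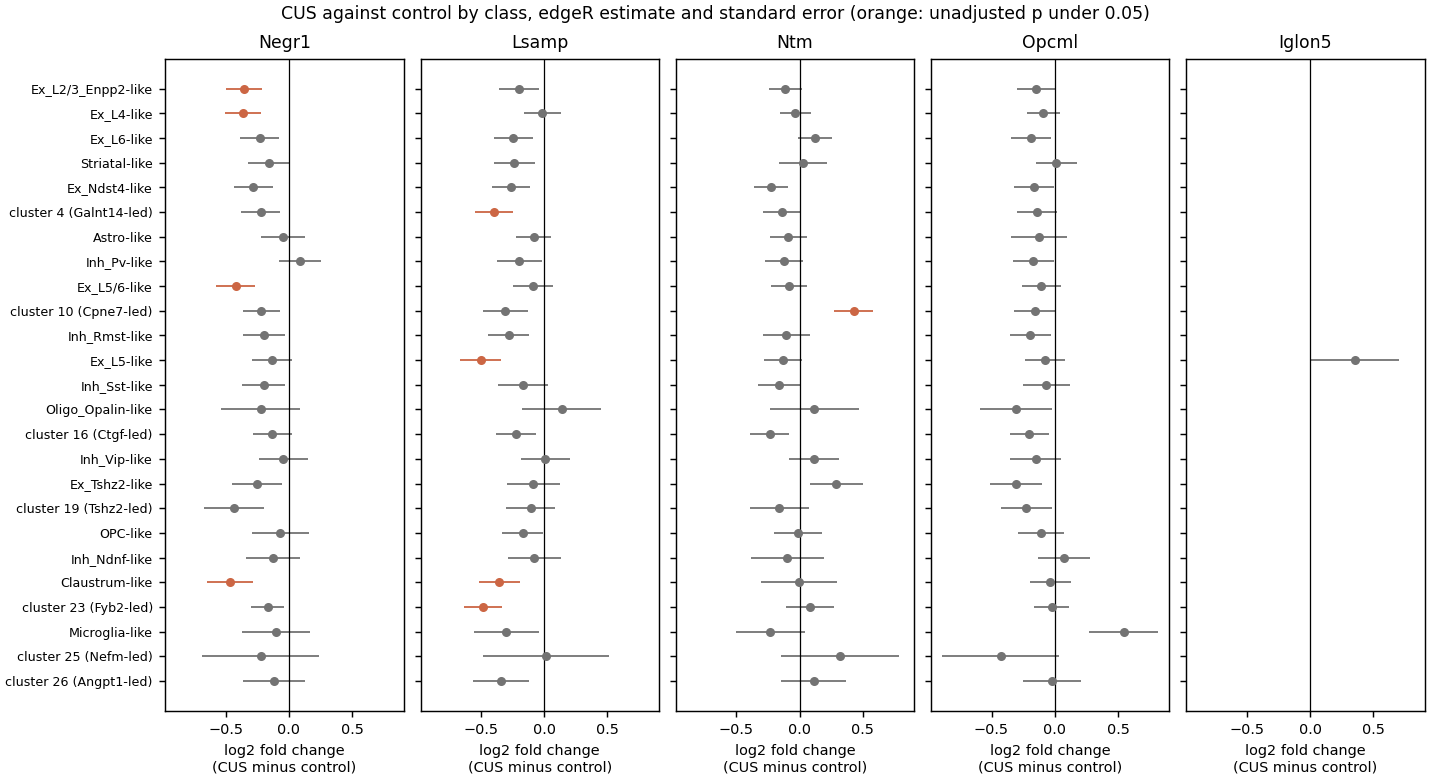
Log2 fold change of CUS against control for each IgLON gene in the 25 classes, with the standard error as bars and orange for an unadjusted p under 0.05. Negr1 lies left of 0 in 24 and Lsamp in 22 of 25 classes, Ntm on both sides, and Iglon5 has 1 testable class.

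**Figure D4:**
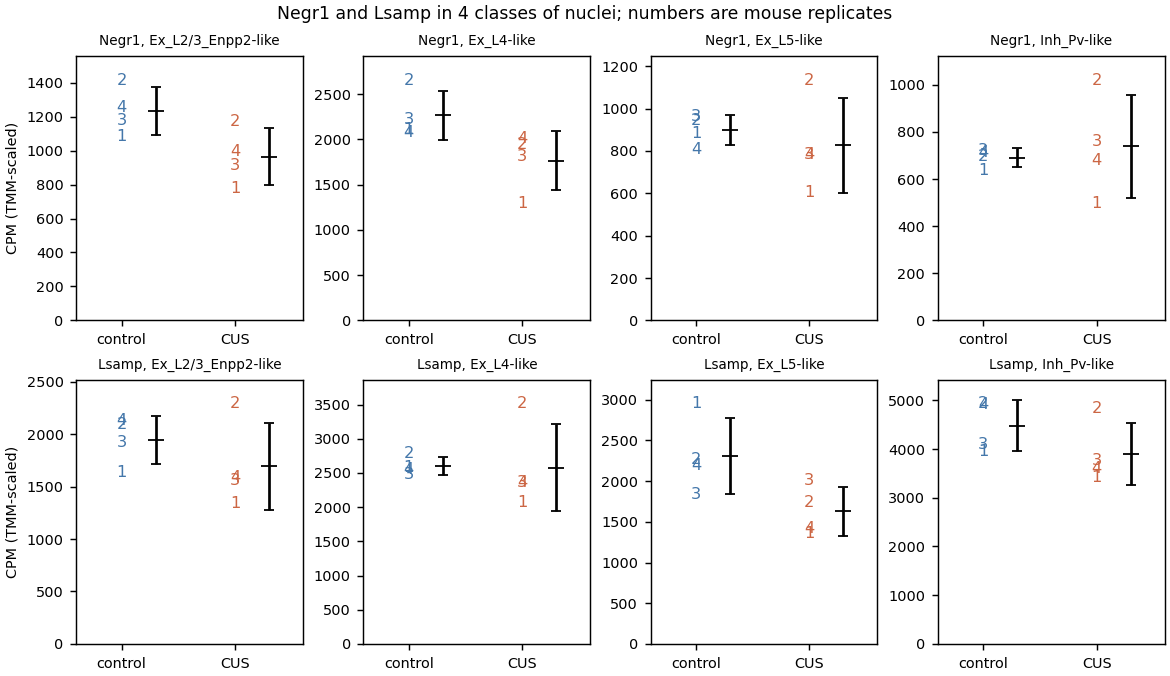
TMM-scaled CPM of Negr1 (upper row) and Lsamp (lower row) in 4 classes, with the replicate number of each mouse as its symbol and bars for mean ± SD. In Ex_L4-like nuclei the 4 CUS mice lie below all controls for Negr1. CUS replicate 1 is lowest in every panel and CUS replicate 2 is highest of its group in 6 of 8.

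Excitatory classes summed, a grouping chosen after the class values were seen, gave Negr1 levels of 1322, 1568, 1363 and 1493 CPM against 919, 1385, 1223 and 1185 CPM (-0.29 ± 0.129, adjusted p = 0.525, edgeR), where 0.0375% of tested genes were called. Without CUS replicate 1 the log2 fold change was -0.18 (adjusted p = 0.938), and without CUS replicate 2 it was -0.36 (0.133), in a fit that called 657 of 4981 genes. Inhibitory classes summed gave -0.16 ± 0.141 (adjusted p = 0.886), where 0.0426% were called. Whether the change differs between classes was tested within mice, as the log2 difference between Ex_L2/3_Enpp2-like nuclei and another class. For Negr1 against Inh_Pv-like nuclei this difference was 0.82 ± 0.135 in controls and 0.42 ± 0.222 in CUS mice (SD, n = 4 each), a shift of -0.40 with an exact two-sided permutation p of 0.0286, the smallest that 4 against 4 mice allow. It was 1 of 15 such tests, and its adjusted p was 0.429. Against Astro-like nuclei the Negr1 shift was -0.30 (exact permutation p = 0.0857, adjusted p = 0.429) and against Ex_L6-like nuclei -0.11 (0.286 and 0.589). Mean Negr1 in Inh_Pv-like and Astro-like nuclei was below that of Microglia-like nuclei, which limits the comparisons with them. Both classes held less of the excitatory marker Slc17a7 (13.4 and 44.5 CPM) than Microglia-like nuclei (133 CPM). The part of RNA from other cells in their Negr1 levels was not tested.

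The lower nuclear levels ran along with gene length. In summed nuclei the 205 tested genes spanning 500 kb or more had a median log2 fold change of -0.17 and 94.6% of them were lower in CUS mice, whereas the 555 genes under 10 kb had a median of 0.13 and 17.3% were lower. Negr1 and Lsamp (-0.25 each) lay below the median of long genes and Opcml (-0.09) above it, each by less than its standard error. Ntm (-0.02) lay further above. Genes of 500 kb or more, the family left out, took 14.1%, 16.7%, 14.9% and 15.4% of counts in control mice and 11.1%, 15.5%, 14.1% and 13.8% in CUS mice. CUS replicate 1 had the lowest share and CUS replicate 2 the highest of its group, the same mice that were lowest and highest for the 4 long members.

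Bulk libraries did not show this tilt to the same degree. There the 241 genes of 500 kb or more had a median of -0.04, with 56.4% lower, and their share of reads was 22.7% to 24.9% in controls and 23.3% to 25.02% in CUS mice. The bulk values of Opcml (0.27), Ntm (0.32) and Lsamp (0.18) were all above that median. The part of gene length in the nuclear IgLON values was not tested, and the bulk and nuclear mice were different animals of different ages whose fold changes were not tested against each other. Bulk and nuclei also differed in tissue (medial prefrontal cortex against neocortex), in time of collection and in library method.

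**Figure D5:**
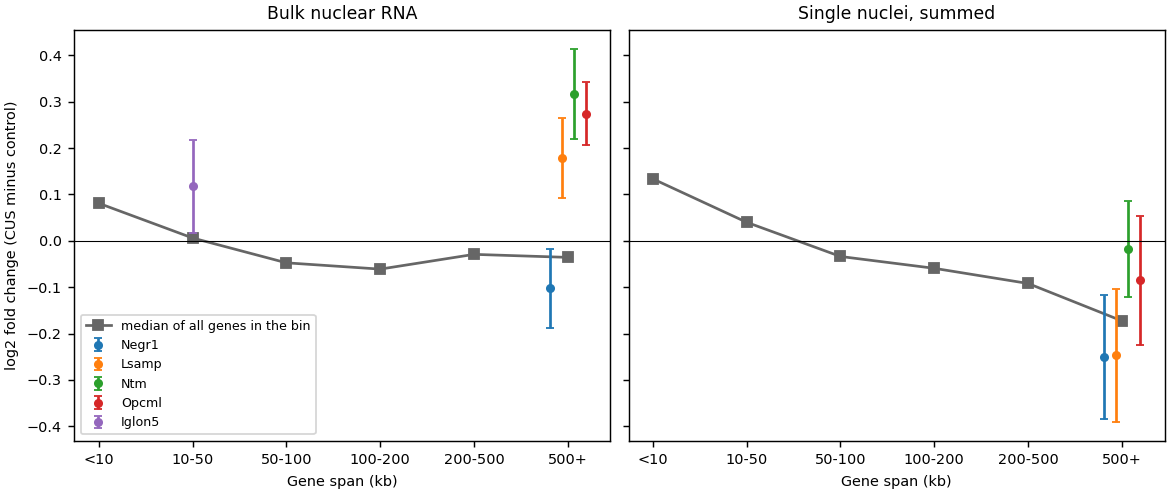
Log2 fold change of CUS against control by gene span in kb, for bulk nuclear RNA and for summed nuclei. Squares are medians of all tested genes in a bin, and coloured points are IgLON genes with their standard errors. In nuclei the median falls from 0.13 to -0.17 with span. Negr1 and Lsamp lie below the last bin's median there and Opcml and Ntm above it, while in bulk Opcml, Ntm and Lsamp lie above it.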

How the data were processed

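The authors deposited bulk counts as whole reads per gene, made with STAR on mm10 with uniquely mapped reads, and sNucDrop-seq counts as UMI counts per gene and barcode (exonic and intronic, mm10). Bulk reads per gene were counted with the authors' own Perl programs, and whether over exons or whole genes is not given in the sources used here. Nuclei with 600 to 5000 genes, under 5% mitochondrial counts and a Scrublet doublet score of at most 0.2 (scanpy 1.11.5) were kept and clustered with Seurat 5.3.0 (2000 variable genes without the IgLON members, 50 components, resolution 1). Counts were summed by mouse and class over nuclei. CUS was compared with control by edgeR 4.0.16 (quasi-likelihood test, TMM factors) over all genes past the filter, filterByExpr in bulk and summed UMIs above 10% of the nuclei elsewhere, at adjusted p of 0.05 and 0.2. The code was tested on simulated data. Members and gene lists were chosen with earlier results of these data known. Other genes named are those called and the 3 with the largest fold changes of each of 2 lists (adhesion genes, NEGR1-linked genes), in bulk and summed nuclei, and the 3 most alike per member. Mice are replicates. Alternatives were the likelihood ratio test, DESeq2 1.42.0, no TMM, no filter, a replicate block, each mouse left out, no doublet filter, a minimum of 1000 genes, other resolutions and thinning. TMM-scaled CPM use effective library sizes set to the mean library total in each comparison. RefSeq promoters were matched by symbol for 5 of 5 members.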

Additional observations from a re-analysis of the deposited data

Results flagged for a closer look

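Among 50 groups of 4 or 5 mice checked for a single distant value (5 genes in bulk, summed nuclei, Ex_L2/3_Enpp2-like, Ex_L4-like and Ex_L5-like nuclei), 1 was found, and chance alone gives about 1 in 20. It was Iglon5 in bulk control replicate 3, at 14.6 CPM against 10.72 to 10.98 CPM in the other 3 controls, the mouse that was also highest of the controls for Opcml and Ntm. The Negr1 shift between Ex_L2/3_Enpp2-like and Inh_Pv-like nuclei, -0.40 on the log2 scale, differed between control and CUS mice by an exact permutation test before adjustment (p = 0.0286) and not after it (0.429).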

How the results depend on the processing

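In bulk, 1 member was called, 2 by the likelihood ratio test and by DESeq2, 0 with the replicate block (Opcml adjusted p = 0.106, edgeR), and 0 to 2 when 1 mouse was left out. In summed nuclei no member was called under 7 alternatives, and 0 to 2 were without single mice. Of the member and class pairs 0 were called, also by DESeq2, 3 with the replicate block (Negr1 in Ex_L2/3_Enpp2-like, adjusted p = 0.134, and Ex_L4-like, 0.19, and Lsamp in cluster 4), and 0 to 4 without single mice, 4 being without CUS replicate 2 (Negr1 and Lsamp in Ex_L2/3_Enpp2-like, Negr1 in Ex_L4-like, Lsamp in cluster 4). Calls over all genes and classes were 124, 349 with the block and 1385 without CUS replicate 2. The cause was not tested. Replicate numbers do not mark shared animals: deviations of same-numbered mice correlated at 0.04, 0.15, 0.02 and 0.09 in bulk and at 0.36, -0.07, 0.40 and -0.45 in nuclei. Between differently numbered mice the correlations in nuclei ran from -0.59 (control 3 with CUS 2) to 0.53 (control 2 with CUS 3 and control 4 with CUS 2), so nuclei of some mice deviate together in a way the numbers do not follow. Its link to the study's batches was not tested. The block moved the bulk calls over all genes from 606 to 233. Bulk calls over all genes were 1413 by DESeq2, 1330 by the likelihood ratio test and 133 to 1508 without single mice. In summed nuclei the log2 fold change of Ntm reversed its sign, to 8.0e-04 without TMM factors, and ranged from -0.071 to 0.032 when 1 mouse was left out (above 0 without control replicate 2 or 4 or CUS replicate 1 or 4). That of Opcml ranged from -0.18 to 0.027 (above 0 without CUS replicate 1). Calls over all genes in Ex_L2/3_Enpp2-like nuclei were 51, 158 by the likelihood ratio test, 130 with the replicate block, 112 with no filter on low counts and 9 to 758 without single mice (758 without CUS replicate 2, 9 without control replicate 2). No neighbouring classes and no difference between classes passed adjustment under the alternatives run, but with 1 mouse left out the exact tests are too coarse to say more. The highest class for Lsamp changed from Astro-like nuclei to a Cpne7-led cluster without the doublet filter. Thinning to 1000 UMIs moved 5 of 125 class levels by more than the spread between mice. Depth limits Iglon5 above all, with 95 to 251 UMIs per mouse over all nuclei. Class boundaries also shifted slightly with the linear algebra library setting of the clustering, which was then fixed, so class values near a threshold carry that uncertainty.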
